A study of Sus scrofa with 6 samples.

Results

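PPARGC1A, PDK4 and UCP3 are genes that muscle uses when it turns from burning glucose to burning fat, and they are described here in the longissimus dorsi, the long back muscle of the pig. They are 3 of the 6765 genes that the platform annotation names on the Affymetrix Porcine Genome Array. Every probe set with exactly one of these symbols was taken, which gave 1 for PPARGC1A, 2 for PDK4 and 2 for UCP3, or 5 of the 24123 probe sets in the table. The series held 6 arrays, each from total RNA of 1 boar killed at 150 days of age. Large White, the control breed, gave 3 arrays and Northeastern Indigenous pigs gave the other 3. Per the labels both breeds had the same feed and housing. The labels name the arrays biological replicates, so each SD below is the spread between boars. Each SE and interval comes from limma, the program that compared the breeds. Limma draws the variance of a probe set toward that of other probe sets of like intensity. Its SE can therefore be smaller or larger than the SDs of that probe set alone would give. In the main fit, on all 6 arrays after quantile normalization, it was smaller for each of the 5 probe sets. Values are log2 intensities after quantile normalization unless stated otherwise, and each difference is Northeastern Indigenous minus Large White.

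PPARGC1A encodes PGC-1alpha, a coactivator that docks on nuclear receptors and other transcription factors and turns on mitochondrial and fat-burning genes. In skeletal muscle it is abundant in oxidative fibres and is induced by exercise and fasting. PDK4 encodes a kinase of the mitochondrial matrix that phosphorylates pyruvate dehydrogenase and so keeps pyruvate-derived carbon out of the citric acid cycle. It is known as a muscle gene of fasting, induced by fatty acids through PPAR receptors and by glucocorticoids. UCP3 encodes a carrier of the inner mitochondrial membrane, found mainly in skeletal muscle and brown fat, whose transcript also rises in muscle when fatty acids are high.

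The 6 arrays differed in tissue markers before any breed comparison. The sarcomere list (14 measured genes) was at -3.55 log2 units (median gene, relative to the mean of the Northeastern Indigenous arrays) on Large White replicate 1, at 0.00 on replicate 2 and at -0.40 on replicate 3. The adipocyte list (8 measured genes) lay at 4.67, 0.29 and 3.46 on the same arrays, and the leukocyte list (11 measured genes) at 2.31, 0.75 and 2.32. Summed deposited intensities of the sarcomere genes ran from 44162 to 415680 in Large White and from 355863 to 380747 in Northeastern Indigenous boars, and those of the adipocyte genes from 10642 to 42600 and from 7185 to 13281. ACTN2 and DES, of the Z-disc and of intermediate filaments, read 8.30 and 7.26 on Large White replicate 1 and at least 12.60 and 11.59 on the other arrays. ADIPOQ, which encodes the fat hormone adiponectin, read 13.64 and 12.50 on Large White replicates 1 and 3 and at most 8.29 elsewhere. No marker gene of these lists was at 0 on any array. The labelled tissue, muscle, was therefore weakest in its own markers on Large White replicate 1. On bulk tissue, fewer muscle cells and less RNA per muscle cell cannot be told apart.

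**Figure D1:**
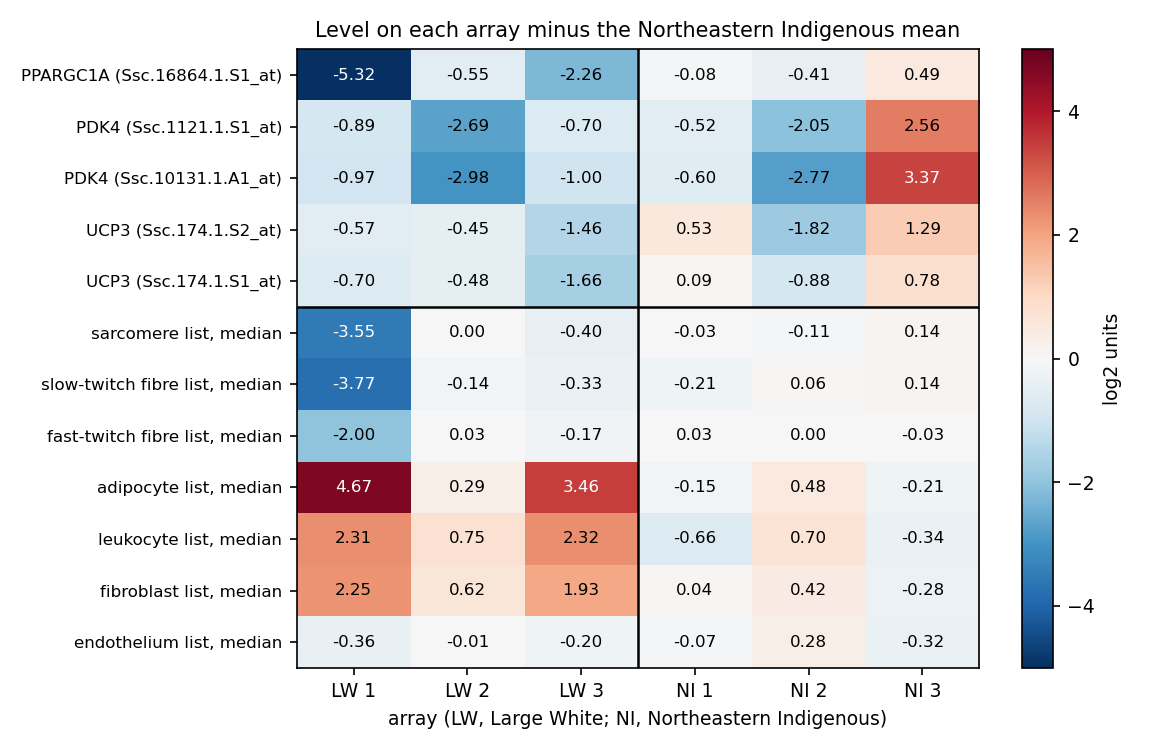
Level on each array minus the Northeastern Indigenous mean, in log2 units, for the 5 probe sets (upper rows) and for the median gene of 7 marker lists (lower rows), with LW for Large White and NI for Northeastern Indigenous. PPARGC1A and the sarcomere list share their lowest column, Large White replicate 1 (-5.32 and -3.55), where PDK4 and UCP3 are not lowest. All 5 probe sets are highest on Northeastern Indigenous replicate 3, PDK4 by the widest margin.

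PPARGC1A was brighter on every Northeastern Indigenous array than on any Large White array, by a small margin. Its log2 intensities were 4.03, 8.80 and 7.09 on Large White replicates 1, 2 and 3, and 9.28, 8.94 and 9.84 on the Northeastern Indigenous replicates. The breeds did not overlap, but only 0.14 log2 units parted the highest Large White array from the lowest Northeastern Indigenous one. The Large White arrays spanned 4.77 log2 units and the Northeastern Indigenous arrays 0.90, and the lowest value, 4.03, lies under the level of the intensity filter (a mean of 5.85). In deposited intensity the gene read 17.6, 420.1 and 147 in Large White and 583, 468 and 875 in Northeastern Indigenous boars.

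The breed means of PPARGC1A were 6.64 ± 2.42 and 9.35 ± 0.46 (SD, n = 3 per breed). The difference was 2.71 ± 1.09 log2 units (SE), a 6.54-fold ratio with a 95% interval from 1.11 to 38.7. Both the SE and the interval use the limma variance, and the SDs of PPARGC1A alone would give a wider interval. That ratio rests in part on the 4.03 of Large White replicate 1. With an offset of 50 added to the quantile-normalized intensities before the log2, the difference was 1.94 ± 0.68 (SE; limma adjusted p = 0.227). The difference without an offset did not pass in limma (adjusted p = 0.255, unadjusted p = 0.041). An exact two-sided permutation test over the 6 arrays gave p = 0.1, the smallest p that 3 against 3 allows. Across the table limma called 0 of 14399 probe sets (0%) at an adjusted p under 0.05, and 2706 (18.8%) at an unadjusted p under 0.05. The breeds did not overlap in 25.1% of probe sets. Of the 5 probe sets described here, 0 were called, 1 was under 0.05 unadjusted and 1 did not overlap, so these counts are close to those of the array as a whole.

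The size of the PPARGC1A difference depended on which Large White arrays entered. It was 1.41 without Large White replicate 1, and 0.56 without replicates 1 and 3 together, where Large White replicate 2 stands alone and is assumed to vary like the Northeastern Indigenous boars (limma adjusted p = 0.659). Without Large White replicate 2 it was 3.81 and passed (limma adjusted p = 0.020), in a fit that called 4425 probe sets. Among the Large White arrays, replicate 2 is the one whose sarcomere and adipocyte lists lay nearest to the Northeastern Indigenous mean.

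PPARGC1A was also set against the muscle structure genes of the same array. As a deposited log2 intensity minus the mean of the sarcomere list, it stood at -6.41, -5.95 and -6.26 in Large White and at -5.29, -5.57 and -4.84 in Northeastern Indigenous boars. The Large White arrays, which spanned 4.58 log2 units in the deposited values, spanned 0.46 on this scale, and the breeds again did not overlap. The share of all probe sets without overlap on this scale was not computed, so the lack of overlap cannot be set beside it. The means were -6.21 ± 0.24 and -5.23 ± 0.37 (SD, n = 3 per breed), a difference of 0.98 (exact two-sided permutation p = 0.1). In limma the same scaling gave an SE of 1.50 and an adjusted p of 0.599, and it moved the median difference of all probe sets to -1.62. Here the limma SE was larger than the SDs of PPARGC1A alone would give, because it draws on the variance of other probe sets on this scale. The adjusted p is therefore not a measure of the spread of PPARGC1A alone. The difference on this scale did not pass in limma, and the scale does not tell PPARGC1A from the sarcomere genes as the side that differs.

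**Figure D2:**
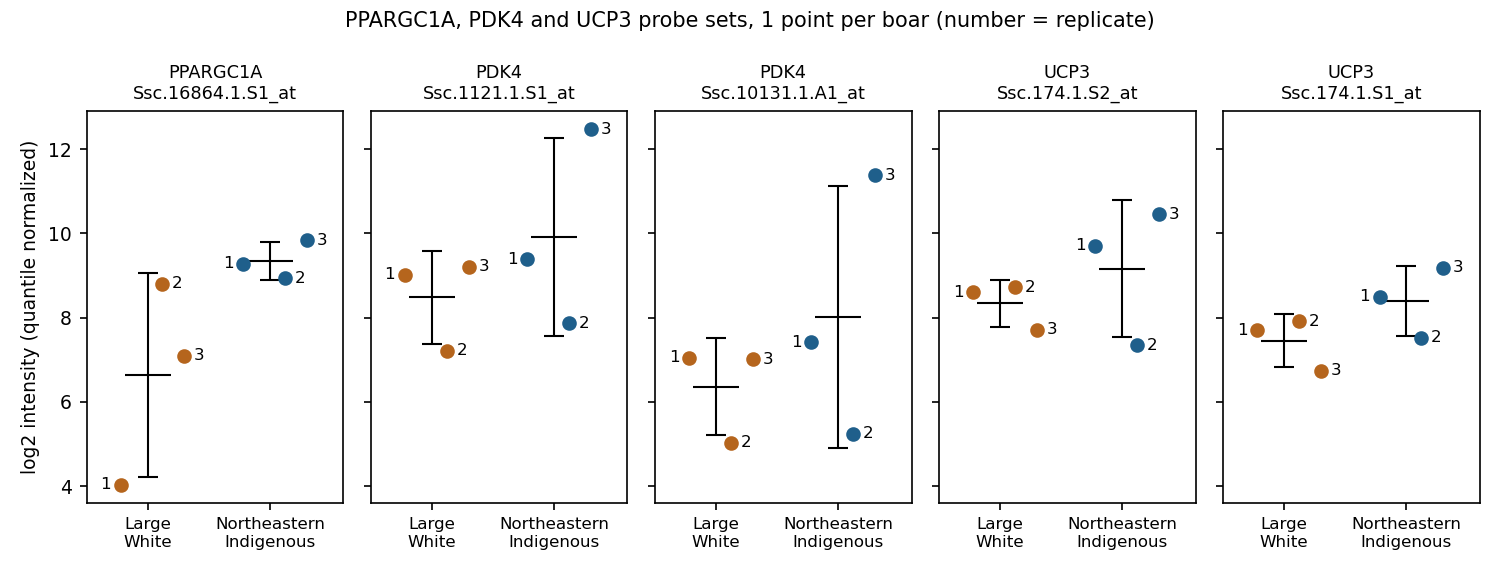
Log2 intensity of the 5 probe sets, 1 point per boar labelled with its replicate number, with breed mean and SD (n = 3 per breed). Large White PPARGC1A is spread from 4.03 to 8.80 under a tight Northeastern Indigenous group, while both PDK4 probe sets are set apart by Northeastern Indigenous replicate 3.

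PDK4 was dominated by 1 boar. On its brighter probe set, Large White replicates 1, 2 and 3 read 9.02, 7.22 and 9.21, and the Northeastern Indigenous replicates read 9.39, 7.86 and 12.47. Northeastern Indigenous replicate 3 lay 3.08 log2 units above the next array, and the other 5 arrays of both breeds were intermixed. In deposited intensity that boar read 5986, against 142 to 653 on the other arrays. The second probe set gave 7.04, 5.03 and 7.01 in Large White and 7.42, 5.24 and 11.38 in Northeastern Indigenous boars. It shows the same high array, 3.96 log2 units above the next, and the same low pair, Large White replicate 2 and Northeastern Indigenous replicate 2.

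The breed means of PDK4 were 8.48 ± 1.10 and 9.91 ± 2.35 on the brighter probe set (SD, n = 3 per breed). Its difference of 1.43 ± 1.15 (SE; 95% interval -1.27 to 4.13) did not pass in limma (adjusted p = 0.467; exact two-sided permutation p = 0.4). The second probe set differed by 1.65 ± 1.46 (SE; limma adjusted p = 0.504). Without Northeastern Indigenous replicate 3 the 2 probe sets differed by 0.14 and -0.04, so the second turned its sign. Relative to the sarcomere list the brighter probe set also turned, to -0.30, with Large White replicate 1 then highest, at -1.33 against -2.07 on Northeastern Indigenous replicate 3. The second probe set stood at a difference of -0.10 on that scale, but with Northeastern Indigenous replicate 3 still highest, at -3.21 against -3.30 on Large White replicate 1. Large White replicate 1 was low in PPARGC1A and in sarcomere genes but not in PDK4.

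UCP3 had the narrowest range of the genes. Its brighter probe set read 8.60, 8.72 and 7.71 in Large White and 9.70, 7.35 and 10.45 in Northeastern Indigenous boars. Northeastern Indigenous replicates 3 and 1 were the highest arrays and replicate 2 of the same breed the lowest, so the Large White arrays lay inside the Northeastern Indigenous range. The other probe set read 7.70, 7.92 and 6.74 against 8.49, 7.52 and 9.19, with the same top pair and with Large White replicate 3 lowest. Both probe sets are annotated to 1 transcript, and once each was centred on its own mean their largest gap was 1.01 log2 units, on Northeastern Indigenous replicate 2.

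The UCP3 means were 8.34 ± 0.55 and 9.17 ± 1.62 on the brighter probe set (SD, n = 3 per breed). It differed by 0.83 ± 0.77 (SE; 95% interval -1.0 to 2.65; limma adjusted p = 0.528; exact two-sided permutation p = 0.5), and the other probe set by 0.95 ± 0.50 (SE; limma adjusted p = 0.320; exact two-sided permutation p = 0.3). Without Northeastern Indigenous replicate 3 these differences were 0.18 and 0.56, and without Northeastern Indigenous replicate 2 they were 1.74 and 1.40. Relative to the sarcomere list the brighter probe set stood at -0.91, the opposite sign.

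**Figure D3:**
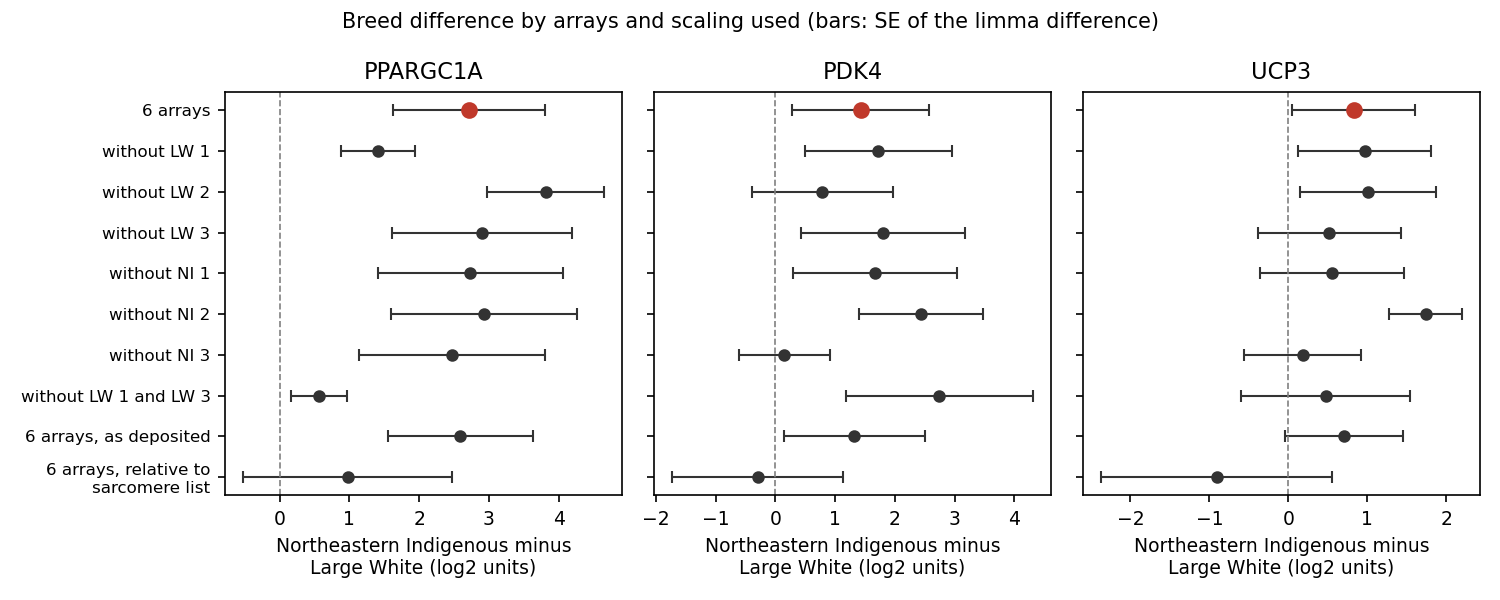
Breed difference of the brightest probe set of each gene, in log2 units with the SE from limma, for all 6 arrays (red) and with arrays left out or rescaled. PPARGC1A runs from 0.56 without Large White replicates 1 and 3 to 3.81 without Large White replicate 2, and is at 0.98 relative to the sarcomere list. PDK4 and UCP3 are at 0.14 and 0.18 without Northeastern Indigenous replicate 3 and at -0.30 and -0.91 relative to the sarcomere list.

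All 5 probe sets had the same order among the Northeastern Indigenous boars, with replicate 3 highest, replicate 1 next and replicate 2 lowest. That order was found in 19.3% of the 5438 named genes above the intensity filter. PPARGC1A, PDK4 and UCP3 were also compared as whole profiles over the 6 arrays, each centred on its own mean. Among their pairs PDK4 and UCP3 lay nearest, with a root mean square distance of 1.15 log2 units. Other named genes, given below, lay nearer to each of them, from 0.87 for PDK4 and from 0.54 for UCP3. The distance was 1.87 between PPARGC1A and UCP3 and 2.29 between PPARGC1A and PDK4. On Large White replicate 1 the centred value of PPARGC1A was -3.97, against -0.17 for PDK4 and -0.16 for UCP3. PPARGC1A and PDK4 also lay apart on Large White replicate 2, at 0.81 and -1.98, and on Northeastern Indigenous replicate 2, at 0.94 and -1.33.

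Among 5279 other named genes, those with the profile nearest to PPARGC1A over the 6 arrays were SMTNL2, MAOB, MYF6, SLC16A3 and FHL3, at distances of 0.26 to 0.36. MYF6, a muscle-specific transcription factor, read 6.04, 10.92 and 9.39 in Large White and 10.95, 10.77 and 11.23 in Northeastern Indigenous boars. SLC16A3, a lactate exporter of glycolytic fibres, read 5.16, 9.73 and 7.49 against 9.94, 9.81 and 10.12. All 5 were lowest on Large White replicate 1 and highest on Northeastern Indigenous replicate 3, as PPARGC1A was. They were chosen for a like profile on these same arrays, so this is no separate result. Nearest to PDK4 were CWC25, SRSF5, CCDC71, KLF9 and BLOC1S5, at 0.87 to 1.03, a looser match than for PPARGC1A. KLF9, a transcription factor induced by glucocorticoids, is the only one of these on the lists below. Nearest to UCP3 were RBBP6, SRSF5, ARHGAP8, DYNC1LI2 and DDC, at 0.54 to 0.66. The genes nearest to PDK4 and UCP3 were all highest on Northeastern Indigenous replicate 3 too, again after being chosen for a like profile.

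Around the 3 genes, 7 pathway lists were read, each gene by its brightest probe set. Limma called 0 genes of any list after adjustment over all probe sets, as it called 0 of the 5438 named genes (0%). At an unadjusted p under 0.05, 9.42% of named genes were higher and 11.4% lower in Northeastern Indigenous boars. The difference was above 0 in 54.7% of named genes, with a median of 0.09, and the breeds did not overlap in 28.3%. Each list is set beside those values.

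The PGC-1 family and its partners had 13 measured genes of 25 listed, 10 with a positive and 3 with a negative difference, and a median of 0.77. Unadjusted p was under 0.05 for 3, all higher. ALAS1, the first enzyme of heme synthesis, differed by 1.65 ± 0.40 (SE), and CYCS, cytochrome c of the respiratory chain, by 1.41 ± 0.40. TFAM, which packages and transcribes mitochondrial DNA, differed by 0.70 ± 0.24. All 3 had an adjusted p of at least 0.224 in limma. ALAS1 read 8.61, 10.03 and 9.36 in Large White against 10.80, 11.29 and 10.84, and TFAM read 10.50, 10.73 and 10.40 against 11.05, 11.21 and 11.46. These genes were lower on Large White replicate 2 than on any Northeastern Indigenous array, the comparison in which PPARGC1A itself differed least. PPRC1, the other measured member of the PGC-1 family, differed by -0.40 ± 0.39 (SE; limma adjusted p = 0.544) and had its highest value on Large White replicate 2. On the arrays the list lay at -1.16, -0.01 and -0.83 in Large White, and 8 of its 13 genes were lowest on Large White replicate 1, against 31.8% of all named genes.

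Upstream signals of PPARGC1A, such as AMP-activated kinase subunits, sirtuins and calcineurin, had 15 measured genes, 10 positive and 5 negative, with a median of 0.31 and 0 under an unadjusted p of 0.05. SIRT3, a mitochondrial deacetylase, differed by 0.73 ± 0.33 (SE) and PRKAG1, a regulatory subunit of AMP-activated kinase, by 0.59 ± 0.27. PPP3CB, a catalytic subunit of calcineurin, differed by 1.09 ± 0.58, and its SD was 1.28 among Large White and 0.09 among Northeastern Indigenous boars (n = 3 each). The adjusted p of these 3 genes was at least 0.279 in limma.

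The substrate of PDK4, the pyruvate dehydrogenase complex, was read in a list with its regulators and other genes that handle pyruvate. The list had 9 measured genes, 3 positive and 6 negative, with a median of -0.13. Of the negative genes only PDHB is a subunit of the complex. The positive genes were the subunits DLAT, DLD and PDHA1, each under 0.05 unadjusted and each without overlap between breeds. DLAT, the acetyltransferase core, differed by 1.16 ± 0.29 (SE; limma adjusted p = 0.224). Its values were 9.50, 10.05 and 9.23 in Large White and 10.74, 10.89 and 10.63 in Northeastern Indigenous boars. DLD, the dehydrogenase that the complex shares with other enzymes, differed by 0.72 ± 0.19, and PDHA1, the subunit that PDK4 phosphorylates, by 0.85 ± 0.24. PDHB, the partner of PDHA1, differed by -0.13 ± 0.28. The 1 gene lower at an unadjusted p under 0.05 was PC, pyruvate carboxylase, named after its values were seen, at -2.06 ± 0.74 (SE; limma adjusted p = 0.238). PC read 12.48, 9.25 and 11.11 in Large White and 8.87, 9.0 and 8.79 in Northeastern Indigenous boars, high on the arrays where the adipocyte list was high, and the part of that list in the result was not tested.

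PDK3, the only other kinase of this family measured, did not share the PDK4 pattern. It read 7.79, 7.63 and 7.60 in Large White and 7.78, 7.52 and 6.94 in Northeastern Indigenous boars, lowest on the array where PDK4 was highest. Its difference was -0.26 ± 0.29 (SE; limma adjusted p = 0.604).

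Fatty acid responsive genes and PPAR targets of muscle had 19 measured genes, 12 positive and 7 negative, with a median of 0.33. Unadjusted p was under 0.05 for 6, all higher. CPT1B, which admits long-chain fatty acids to the mitochondrion, read 5.29, 7.87 and 6.67 in Large White and 8.90, 9.01 and 9.39 in Northeastern Indigenous boars, and differed by 2.49 ± 0.61 (SE). ACADVL, a dehydrogenase of the first step of fatty acid oxidation, differed by 1.70 ± 0.33, and ETFA, which takes up the electrons from it, by 0.58 ± 0.17. All 3 had an adjusted p of 0.224 in limma. None of these had the PDK4 pattern, since on the Northeastern Indigenous arrays CPT1B spanned 8.90 to 9.39 while PDK4 spanned 7.86 to 12.47. ANGPTL4, a PPAR target that inhibits lipoprotein lipase, was named after its values were seen and differed by -0.44 ± 0.43, with its lowest value, 6.0, on Northeastern Indigenous replicate 3. That array was the highest for 6 of the 19 genes, CPT1B and ETFA among them, against 20.1% of all named genes.

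Uncoupling proteins and nucleotide carriers had 5 measured genes, 2 positive and 3 negative, with a median of -0.13. SLC25A3, the phosphate carrier, differed by 0.37 ± 0.11 (SE), and SLC25A4, the ADP/ATP carrier of muscle, by 1.27 ± 0.56. SLC25A5, the ADP/ATP carrier of other tissues, differed by -1.60 ± 0.71. Their adjusted p was at least 0.224 in limma. SLC25A5 read 12.36, 9.26 and 11.02 in Large White and 9.11, 9.24 and 9.49 in Northeastern Indigenous boars, the same high arrays as PC.

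UCP2, the uncoupling protein of many cell types and the neighbour of UCP3 in the RefSeq gene order of Sscrofa11.1, was under the intensity filter and was not tested. It read 6.62, 2.55 and 6.45 in Large White and 2.56, 7.18 and 3.41 in Northeastern Indigenous boars. The high arrays were Large White replicates 1 and 3 and Northeastern Indigenous replicate 2, and the last of these was the lowest array for the brighter UCP3 probe set. The leukocyte list lay at 0.70 on Northeastern Indigenous replicate 2, against -0.66 and -0.34 on replicates 1 and 3. It was as high, at 0.75, on Large White replicate 2, where UCP2 had its lowest value, and the part of that list in the UCP2 values was not tested.

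**Figure D4:**
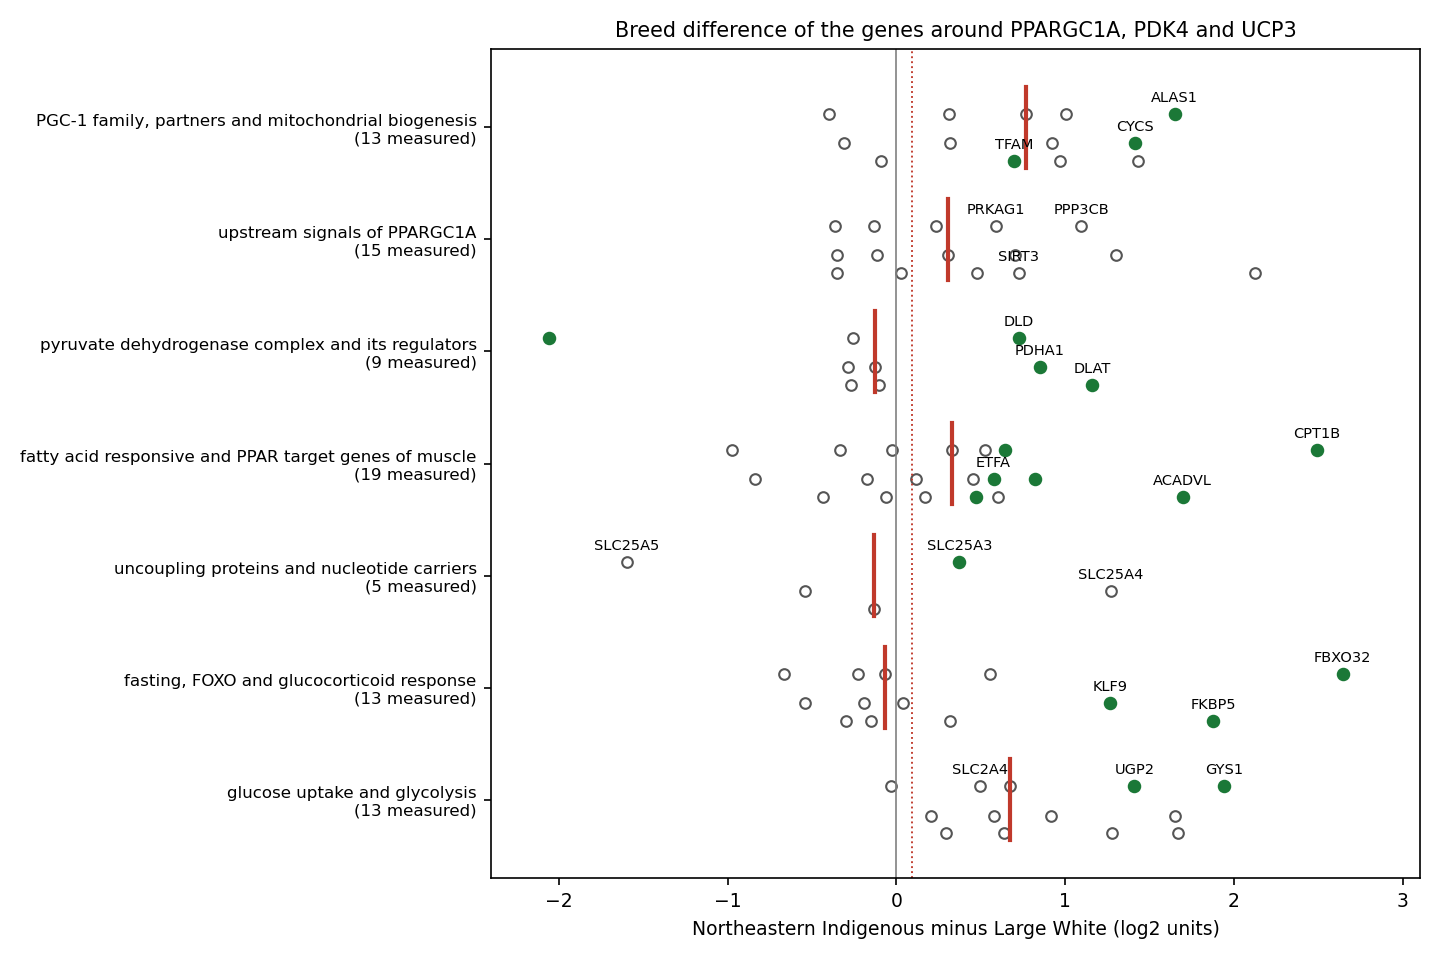
Breed difference of each measured gene in the 7 pathway lists, in log2 units, with green points for an unadjusted p under 0.05, open points for the rest, a red bar at the list median and a dotted line at the median of all named genes (0.09). Named points are the 3 genes of smallest p in each list. The fasting list has FBXO32, FKBP5 and KLF9 far to the right of a median of -0.07.

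Fasting, FOXO and glucocorticoid response genes lay on both sides of 0. Of 13 measured genes 6 had a positive and 7 a negative difference, with a median of -0.07, and 3 were under an unadjusted p of 0.05, all higher. FBXO32, a ubiquitin ligase of muscle wasting, read 7.91, 10.69 and 9.66 in Large White and 12.08, 11.07 and 13.03 in Northeastern Indigenous boars. FKBP5, a chaperone induced by glucocorticoids, read 9.42, 9.57 and 9.09 against 11.20, 10.23 and 12.28. In both, the breeds did not overlap and Northeastern Indigenous replicate 3 was highest and replicate 2 lowest of its breed, the order that PDK4 had there. KLF9 read 10.48, 10.09 and 10.96 against 11.89, 10.93 and 12.52. The differences were 2.64 ± 0.77 for FBXO32, 1.88 ± 0.51 for FKBP5 and 1.27 ± 0.44 for KLF9 (SE; limma adjusted p at least 0.224).

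Northeastern Indigenous replicate 3 was the highest array for 7 of the 13 genes of that list, where it was highest for 20.1% of all named genes. The same array was highest for 7 of 14 sarcomere, 6 of 9 slow-twitch and 0 of 7 fast-twitch genes, so this was not particular to the fasting list. In the fasting list the 7 were FBXO32, FKBP5, KLF9, CEBPD, KLF15, CEBPB and GADD45A. CEBPD, a transcription factor of the acute stress response, read 10.19, 9.64 and 10.05 in Large White and 9.08, 9.14 and 11.10 in Northeastern Indigenous boars. It shares with PDK4 a single high boar, and its breed difference was -0.19 ± 0.56 (SE; limma adjusted p = 0.851). Other genes that glucocorticoids induce did not have their highest value there, among them TSC22D3 at 12.37 against a highest value of 12.83 on Large White replicate 1. FOXO1, a transcription factor of PDK4, ranged over the 6 arrays only from 8.44 to 8.92.

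**Figure D5:**
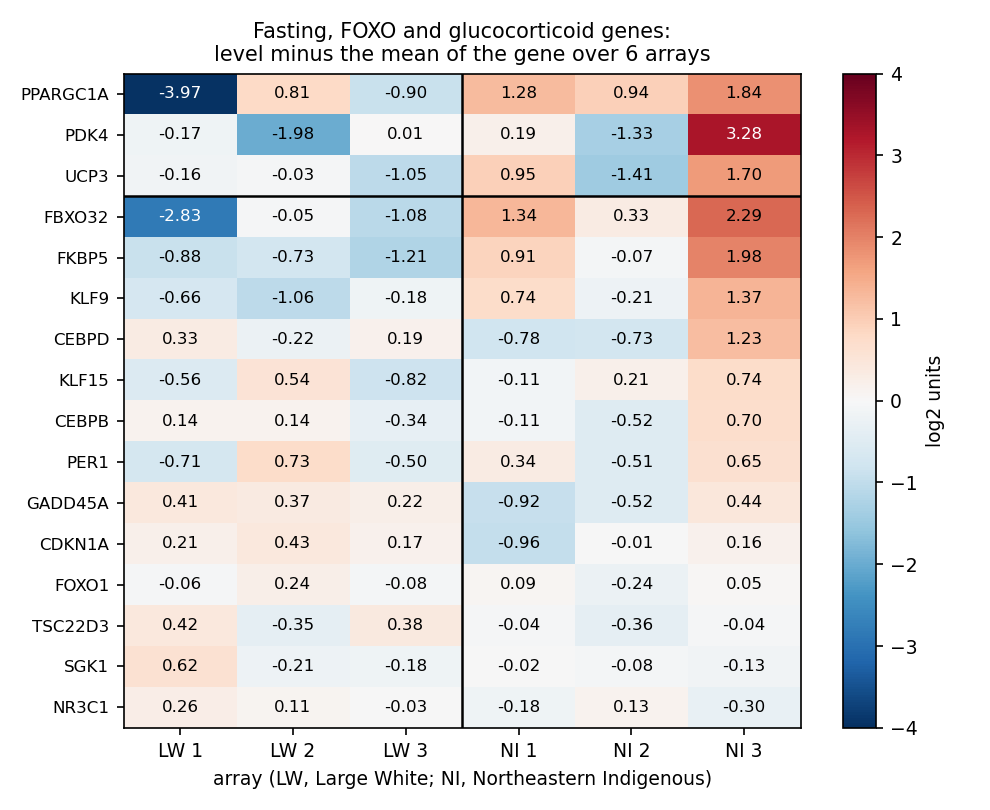
Level minus the mean of the gene over the 6 arrays, in log2 units, for the brightest probe sets of PPARGC1A, PDK4 and UCP3 (top) and the 13 measured genes of the fasting, FOXO and glucocorticoid list, ordered by their value on Northeastern Indigenous replicate 3. PDK4 reaches 3.28 on that array, and FBXO32, FKBP5 and KLF9 are at 2.29, 1.98 and 1.37.

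Glucose uptake and glycolysis supply the pyruvate whose oxidation PDK4 restrains. Their list, which also holds glycogen genes such as UGP2 and GYS1, had 13 measured genes, 12 positive and 1 negative, with a median of 0.67. UGP2, which makes the glucose donor of glycogen, differed by 1.41 ± 0.27 (SE), GYS1, the muscle glycogen synthase, by 1.94 ± 0.76, and SLC2A4, the insulin-responsive glucose transporter, by 0.50 ± 0.29. Their adjusted p was at least 0.224 in limma. Of the 13 genes, 12 were lowest on Large White replicate 1, as were 14 of 14 sarcomere genes. PPARGC1A shared that lowest array, and PDK4 and UCP3 did not.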

How the data were processed

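Per the labels' protocols, biotin-labelled cRNA from total RNA was read on the Affymetrix Porcine Genome Array, and the authors deposited a linear intensity for every probe set. The software that made these values is not given in the sources used here. Trimmed means of the 6 arrays were near 500, so arrays had been scaled before deposit, while their medians spanned 0.35 log2 units. An array gives brightness and no read depth, and 3 arrays per breed limit the precision.

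The 124 control probe sets were left out and log2 values were quantile normalized. Of the other 23999 probe sets, 10069 carried 1 platform symbol, 198 several and 13732 none. Probe sets with a mean at or above the 40th percentile (5.85) were kept, and all 5 described here passed. Breeds were compared with limma 3.58.1 in R 4.3.3 (lmFit, eBayes with intensity trend), two-sided, with Benjamini-Hochberg adjustment over 14399 probe sets, after a test on simulated data. The sources used here give no build for the probe sets, so no coordinates are printed, and the RefSeq table of Sscrofa11.1 served for gene order alone.

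Members, lists and alternatives were chosen with earlier results of these data known. Named genes are the members and their families, the 3 of smallest p in each list, the 5 nearest profiles and array markers. PC, PDHB, ANGPTL4, CEBPD, KLF15, CEBPB, GADD45A, TSC22D3 and FOXO1 fall outside that rule and were named after their values were seen. Median differences of the marker lists were 1.32 for sarcomere, 1.32 for slow-twitch, 0.66 for fast-twitch, -2.74 for adipocyte, -1.79 for leukocyte, -1.56 for fibroblast, 0.18 for endothelium and -0.31 for red blood cell genes.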

Additional observations from a re-analysis of the deposited data

How the results depend on the processing

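None of the 3 genes passed with all 6 arrays, in any scaling, filter, offset, variance prior or probe set average that was run. PPARGC1A kept a positive difference in all 17 alternatives, from 0.56 to 3.81, and passed in 1 of them, without Large White replicate 2 (3.81). Leaving out 1 array gave 1.41 to 3.81 for PPARGC1A, 0.14 to 2.44 for PDK4 and 0.18 to 1.74 for UCP3. Centring arrays on the sarcomere list reversed PDK4 (-0.30) and UCP3 (-0.91), and moved the median of all probe sets from 0.10 to -1.62. On the brightest probe set of each gene the other 16 alternatives kept the sign of both, while the second PDK4 probe set turned to -0.04 without Northeastern Indigenous replicate 3. The count of called probe sets, 0 in the main setting, was 1 with median centring, 9 with sarcomere centring and 1 at an adjusted p under 0.1, and leaving out 1 array gave 0 to 4425. With the replicate block it stayed 0, with 2109 at an unadjusted p under 0.05, and the adjusted p in limma was 0.336 for PPARGC1A, 0.345 for PDK4 and 0.571 for UCP3. Deviations of same-numbered arrays from their breed means correlated at -0.02, -0.16 and -0.11 across probe sets. Arrays of equal number come from boars of different breeds, so they do not mark a shared litter. Whether equal numbers mark a shared day was not tested. Values near the filter level are the least certain, among them PPARGC1A on Large White replicate 1 (4.03).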
